A study of Homo sapiens with 8 samples.

Results

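The genes described here encode the m6A erasers FTO and ALKBH5, the IGF2BP readers IGF2BP1, IGF2BP2 and IGF2BP3, and HNRNPA2B1, a further proposed m6A reader. Members were all m6A peaks whose gene name in the deposited lists was one of these 6 names. There were 8 such peaks among 13219 under DF2 siRNA and 7 among 15730 in the control list. U2OS, a human osteosarcoma cell line, was studied with siRNA against DF2 (YTHDF2) and as a control without this knockdown. Per the design text, cytoplasmic RNA was cut to fragments of about 100 nt, and fragments with m6A were pulled down with an antibody. The 8 libraries were m6A immunoprecipitates and inputs of DF2 siRNA cells and of control cells, 2 of each kind. The labels do not say whether DF2 siRNA #1 and #2 were different siRNAs, or whether libraries came from separate cultures. Each condition had 1 peak list for both of its immunoprecipitates, so no value below has a replicate or a p-value. The depth of the libraries is unknown.

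m6A is a methyl mark on adenosines of mRNA, placed by a nuclear writer complex around METTL3 and METTL14. FTO and ALKBH5 are dioxygenases that remove it, FTO also acting on the related mark next to the cap. IGF2BP proteins bind RNA through KH domains and are known to protect bound mRNAs from decay, and YTHDF2 directs m6A-bearing mRNAs towards decay. HNRNPA2B1 is an abundant nuclear RNA-binding protein with roles in splicing, RNA transport and the processing of primary microRNAs. A peak listed under one of these genes shows methylated fragments assigned to that gene, and whether they came from its own mRNA was not tested. It does not measure the protein or its activity, and since a peak needs RNA as well as m6A, a missing peak does not show that a gene is silent.

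Bases could be shown for the only stretches where a peak of these genes reached a RefSeq promoter window (250 bases before to 50 after a gene start, GRCh38.p14). Such windows were found for 5 of the 6 genes. The first stretch lies in the control peak of HNRNPA2B1, at chr7:26200952-26200981 on the minus strand, and the capitals mark GGACT, the DNA spelling of a common form of the m6A consensus. The second is the part of the DF2 siRNA peak of IGF2BP3 that lies within its window, at chr7:23470442-23470467 on the minus strand, where the control list has no peak.
HNRNPA2B1: tagtaactagcaGGACTctagccttccgca
IGF2BP3: ggccgaagccaaaggggttgggaagg
In HNRNPA2B1 the motif stands at position -223 relative to the RefSeq gene start, counted as 0, and occurs on the sense strand once in the 267 bases that peak and window share, with no match on the other strand. In the same 267 bases of all 35116 promoters of the table, GGACT occurred on the sense strand in 22.5% and on either strand in 40.1%. A match at this frequency is a description of the letters, not a methylated site. GGACT did not occur in the 26 bases of IGF2BP3.

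Peaks were listed under 5 of the 6 genes, and these 5 were in both lists, while IGF2BP1 was in neither. Of all 10577 genes in either list, 75.2% were in both, 5.73% in the DF2 siRNA list only and 19.1% in the control list only. Of the 8 DF2 siRNA peaks of these genes, 6 shared at least 1 exonic base, strand included, with a peak of the control list, beside 87.5% of all DF2 siRNA peaks. Of the 7 control peaks, 6 were overlapped by a DF2 siRNA peak, beside 71.9% of all control peaks. Peaks with identical blocks numbered 5 in each list, beside 35.1% of all DF2 siRNA peaks and 29.5% of all control peaks. With so few peaks, these counts are a description, and no difference from the whole lists was tested. Every peak of ALKBH5, FTO and IGF2BP3 met a peak of the other list, IGF2BP2 had a further peak in DF2 siRNA cells, and the peaks of HNRNPA2B1 lay at different places in the 2 lists.

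**Figure D1:**
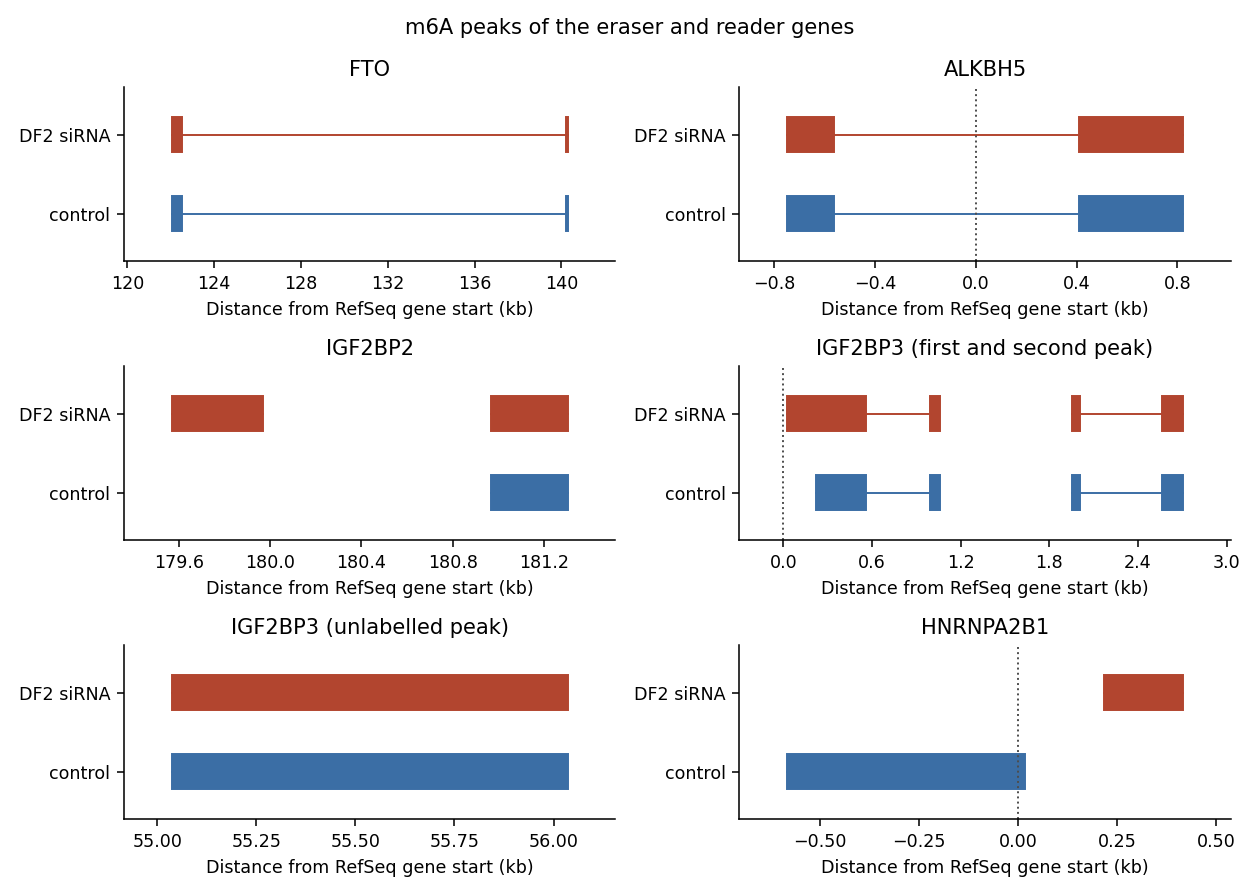
Peaks of the 5 genes that had any, drawn to scale as distance from the RefSeq gene start in kb, with DF2 siRNA above control. Boxes are exonic blocks, lines join the blocks of a peak and the dotted line marks the gene start. Blocks match between the lists for FTO, ALKBH5 and the second and unlabelled peaks of IGF2BP3, and those of HNRNPA2B1 do not meet.

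The values below are the deposited fold enrichment of a peak, a score whose meaning the sources used here do not give, and a −log10 value, taken of an FDR in the DF2 siRNA file and of a p-value in the control file. They rank peaks within a list. Fold enrichments of the 2 lists are set side by side, and no difference between them was tested. The median of all peaks was 17.7 under DF2 siRNA and 20.8 in the control list. Above it lay 3 of the 8 DF2 siRNA peaks, 1 of ALKBH5 and 2 of IGF2BP3, and 2 of the 7 control peaks, 1 of each of these genes. The median over the peaks of these genes was 14.4 under DF2 siRNA and 17.2 in the control list. Scores ranged from 18 to 1230 under DF2 siRNA and from 69 to 1828 in the control list. The median score of all peaks was 74 under DF2 siRNA and 143 in the control list. Lower scores under DF2 siRNA were thus also seen over the whole list.

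**Figure D2:**
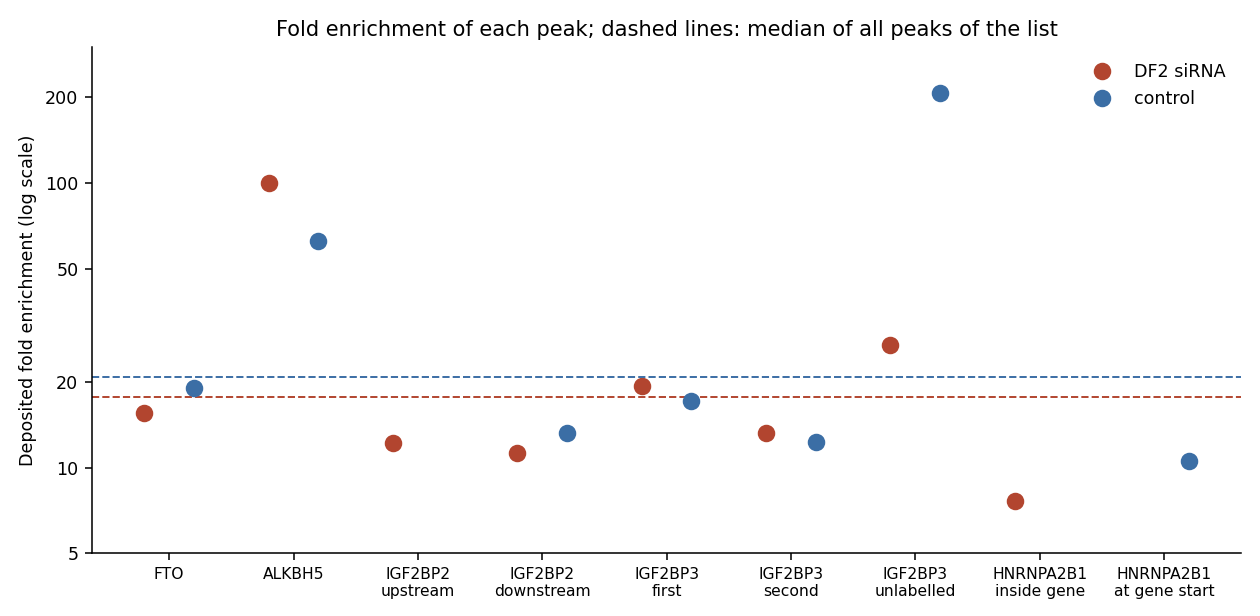
Deposited fold enrichment of every peak of the 5 genes on a log axis, 1 point per peak and list, with DF2 siRNA left of control. Dashed lines are the medians of all peaks, 17.7 under DF2 siRNA and 20.8 in the control list. ALKBH5 and the unlabelled peak of IGF2BP3 lie above the line of their list in both conditions.

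ALKBH5 carried the strongest labelled peak of these genes in both lists, around the start of its RefSeq gene. The peak had the same blocks in both, 600 nt of exonic sequence on the plus strand of chromosome 17, from 18183078 to 18184650 (hg38), labelled 5′ UTR and coding by the authors. Its fold enrichment was 100.0 in DF2 siRNA cells, rank 376 of 13219, and 62.4 in control cells, rank 2267 of 15730. Its score was 1230 in DF2 siRNA cells and 1828 in control cells. Within the DF2 siRNA list it thus stood above 97.2% of peaks by fold enrichment, and within the control list above 85.6%. Other peaks with a score within 10% of its own had a median fold enrichment of 79.2 in the DF2 siRNA list (140 peaks) and 69.9 in the control list (279 peaks), so ALKBH5 lay above that median in the first and below it in the second. Its −log10 value was 25.8 under DF2 siRNA and 15.7 in the control list, far above the minimum of 1.30 of both.

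The peak of ALKBH5 began before the gene model of RefSeq. A first stretch of 188 nt ran from position -750 to -563 relative to the RefSeq start, and a second of 412 nt ran from 411 to 822. The authors' annotation thus joined an upstream stretch to the start of the gene, and no exonic base of the peak fell in the promoter window between them.

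FTO carried 1 peak of ordinary strength with identical blocks in both lists. It lay on the plus strand of chromosome 16, from 53825997 to 53844259, as a stretch of 495 nt and a stretch of 105 nt in different exons. Its fold enrichment was 15.6 in DF2 siRNA cells, rank 7403, and 19.0 in control cells, rank 8388, below the median of the list in both. Its score was 101 in DF2 siRNA cells and 229 in control cells. Peaks of like score, within 10%, had a median fold enrichment of 21.9 under DF2 siRNA and 26.2 in the control list, above that of FTO in both. The authors labelled the peak coding, stop codon and 3′ UTR. It ended 277682 bases before the end of the RefSeq gene, at 33.6% of a span of 417979 bases. The sources used here do not give the transcript to which the stop codon label refers. It was the only peak of these genes with that label, which 43.7% of all DF2 siRNA peaks and 42.7% of all control peaks carried.

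The 3 IGF2BP genes, which encode closely related proteins, differed in where peaks lay. IGF2BP1 had none in either list. The only peak inside its RefSeq span (chromosome 17, 48996558 to 49056145) belonged to the non-coding RNA RP11-501C14.7 on the same strand, from 49037122 to 49037429, and was in the control list only, at fold enrichment 8.64 and score 13. IGF2BP2 had peaks at its 3′ end and IGF2BP3 at its 5′ end and within the gene.

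IGF2BP2, which is widely expressed in adult tissues, had 2 peaks labelled 3′ UTR in DF2 siRNA cells and 1 in control cells. The downstream peak had the same 335 nt in both lists, from 185643739 to 185644073 on the minus strand of chromosome 3, and ended 609 bases before the RefSeq gene end. Its fold enrichment was 11.3 with a score of 26 in DF2 siRNA cells, and 13.2 with a score of 69 in control cells. The upstream peak, from 185645074 to 185645473, was in the DF2 siRNA list only, with 400 nt, a fold enrichment of 12.2, a score of 59 and a −log10 FDR of 2.31. A gap of 1000 nt separated the 2. All 3 entries lay in the lower 50% of their list by fold enrichment, above 31.9% and 27.7% of DF2 siRNA peaks (upstream and downstream) and above 31.7% of control peaks. The DF2 siRNA list names the upstream peak as bin 0 and the downstream peak as bin 1. The control list has only bin 1, and 17.5% of control genes likewise had no bin 0, beside 17.8% of DF2 siRNA genes. The sources used here do not give how bins were numbered.

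IGF2BP3, an oncofetal member of the family, had 3 peaks in each list, a number reached by 11.9% of genes under DF2 siRNA and 12.6% of genes in the control list. The first, labelled 5′ UTR and coding, began at position 24 from the RefSeq start in DF2 siRNA cells and at 224 in control cells. It held 600 nt in DF2 siRNA cells and 400 nt in control cells, all 400 of which were shared, so that the added 200 nt lay towards the gene start. Its fold enrichment was 19.3 in DF2 siRNA cells and 17.2 in control cells, and its score was 94 in DF2 siRNA cells and 302 in control cells. The second peak, labelled coding, held the same 200 nt in both lists, in stretches of 60 and 140 nt. Its fold enrichment was 13.3 in DF2 siRNA cells and 12.3 in control cells, and its score was 42 in DF2 siRNA cells and 119 in control cells. Both peaks lay below the median fold enrichment of peaks of like score in either list.

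The remaining peak of IGF2BP3 had the highest fold enrichment of these genes in the control list and carried no feature label in either list. It was 1 unbroken stretch of 1000 nt on the minus strand of chromosome 7, from 23414456 to 23415455, with identical ends in both lists. It began at position 55036 from the RefSeq start, separated from the second peak by 52331 bases, and no other RefSeq gene and no RefSeq microRNA hairpin overlapped it. Its fold enrichment was 26.9 in DF2 siRNA cells, rank 4440 of 13219, and 207 in control cells, rank 21 of 15730. Its score was 28 in DF2 siRNA cells and 396 in control cells. The −log10 FDR was 24.5 in the DF2 siRNA list, rank 628, and the −log10 p was 91.6 in the control list, rank 9. The best peak of IGF2BP3 in each list is therefore this one, and its labelled peaks have the lower values given above.

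In both lists the fold enrichment of this peak was high for its score. The score exceeded that of 28.6% of peaks under DF2 siRNA and of 71.2% in the control list. Among the 446 DF2 siRNA peaks with a score within 10% of its own it ranked 1 by fold enrichment, with a median of 13.1 and a highest value of 26.1 among the others. Among 655 such control peaks it also ranked 1, with a median of 31.3 and a highest value of 202 among the others. Peaks without a feature label numbered 246 under DF2 siRNA and 378 in the control list, with a median fold enrichment of 7.81 in DF2 siRNA and 9.20 in control. By fold enrichment the IGF2BP3 peak ranked 15 among the unlabelled DF2 siRNA peaks and 1 among the unlabelled control peaks, where DSCR3 came next at 101. Its position in both lists at the upper edge of fold enrichment for its score is a description within each list. Whether it comes from IGF2BP3 mRNA or from another RNA at that place was not tested.

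**Figure D3:**
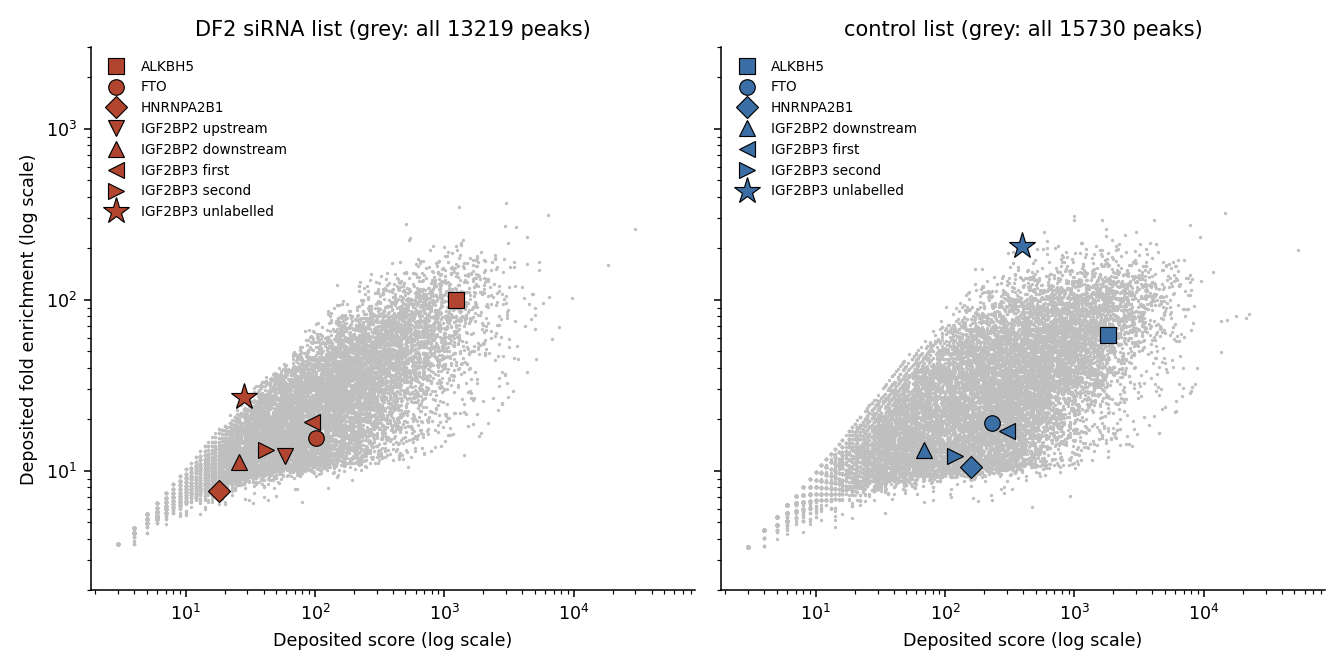
Deposited fold enrichment against deposited score on log axes for all 13219 DF2 siRNA peaks (left) and all 15730 control peaks (right) in grey, with the peaks of the 5 genes in colour. The star, the unlabelled IGF2BP3 peak, lies on the upper edge of the cloud in both panels, and most other coloured points lie in its lower part.

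Measured in this way, most peaks of these genes had a lower fold enrichment than the median of peaks of like score. That held for 6 of 8 in the DF2 siRNA list, the exceptions being ALKBH5 and the unlabelled IGF2BP3 peak. In the control list it held for 6 of 7, the exception being the unlabelled IGF2BP3 peak. Width was not matched there. Among like-score peaks of the same width, some of those below the median ranked above the middle. In control these were ALKBH5 (11 of 32) and the first (49 of 106) and second (21 of 61) IGF2BP3 peaks. Under DF2 siRNA it was the second IGF2BP3 peak (26 of 71). FTO, HNRNPA2B1, the upstream IGF2BP2 peak and the first IGF2BP3 peak under DF2 siRNA ranked below the middle. The downstream IGF2BP2 peak had no match.

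HNRNPA2B1 was in both lists with weak peaks that did not overlap. The DF2 siRNA peak lay inside the gene, from 26200330 to 26200529 on the minus strand of chromosome 7, with 200 nt, no feature label, fold enrichment 7.62 and score 18. The control peak lay across the gene start, from 26200730 to 26201329, with 600 nt labelled 5′ UTR, fold enrichment 10.5 and score 158. A gap of 200 nt separated them. Their −log10 values, 1.33 for the FDR under DF2 siRNA and 1.44 for the p-value in the control list, were close to the minimum of 1.30. Only 17 of the 600 nt of the control peak lie within the RefSeq gene, and the rest lie before it, towards the neighbouring gene CBX3 on the opposite strand, which encodes heterochromatin protein HP1 gamma. The control list has a peak of CBX3 from 26201162 to 26201361 at fold enrichment 3.58 and score 3, which shares 168 bases with the HNRNPA2B1 peak. The sources used here do not say whether counting used strand, so reads of HNRNPA2B1 and CBX3 at these bases cannot be told apart.

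The writer genes and the YTH readers had higher median fold enrichments than the erasers and IGF2BP and HNRNPA2B1 readers as 1 group, a difference that was not tested. Within that group values differed widely. ALKBH5 had 100.0 in DF2 siRNA and 62.4 in control, and IGF2BP3 had 26.9 in DF2 siRNA and 207 in control through its unlabelled peak. Of 28 further genes of the pathway, 16 had a peak in both lists, 1 in the DF2 siRNA list only, 3 in the control list only and 8 in neither. Over all genes in either list, which leaves out those in neither, 75.2% were in both. In the DF2 siRNA list only were 5.73%, and in the control list only 19.1%. These shares also stand beside the counts of the gene lists below. The median best fold enrichment of writer genes was 40.7 in DF2 siRNA (10 genes) and 64.2 in control (9 genes), beside 15.6 in DF2 siRNA and 19.0 in control for the 5 genes described here. Over all genes with a peak it was 23.0 in DF2 siRNA and 28.9 in control, and over the YTH readers 51.4 in DF2 siRNA and 40.5 in control. RBM15, which guides the writer complex to its targets, had 124 in DF2 siRNA and 139 in control, and its relative RBM15B had 115 in DF2 siRNA and 103 in control. METTL3, the catalytic writer subunit, was in the DF2 siRNA list only, at 13.9. Of the 5 YTH readers, 4 were in both lists, and YTHDC2 was in control only, at 8.34. The −log10 p of that peak was 1.37, close to the list minimum of 1.30. YTHDF2, the target of the siRNA, had a best peak at 52.3 in DF2 siRNA, with score 185, labelled coding and stop codon. Its best peak in control was at 124, with score 4226, and also carried the 5′ UTR and 3′ UTR labels. YTHDF3 had 63.6 in DF2 siRNA and 89.9 in control.

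Of 11 genes of other proteins proposed to bind m6A, 3 were in both lists, 2 in control only and 6 in neither. The median best fold enrichment was 28.9 in DF2 siRNA (3 genes) and 24.8 in control (5 genes). These medians cover different genes, since G3BP1 and FXR1 enter only the control median. Of the 3 in both lists, RBMX and G3BP2 were higher in control and PRRC2A was lower. RBMX had 4.35 in DF2 siRNA and 17.5 in control. The stress granule gene G3BP2 had 28.9 in DF2 siRNA and 62.9 in control, and PRRC2A had 61.3 in DF2 siRNA and 45.8 in control. G3BP1, at 24.8, and FXR1, at 15.0, were in control only.

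Relatives of the erasers and of HNRNPA2B1 were also read. Of 7 other ALKB genes, 5 were in both lists and 2 in neither, with a median best fold enrichment of 55.7 in DF2 siRNA and 66.9 in control. ALKBH8, which modifies transfer RNA, had 55.7 in DF2 siRNA and 123 in control, and ALKBH4 had 112 in DF2 siRNA and 96.2 in control. ALKBH5 therefore lay within the range of its relatives and FTO near the low end, where ALKBH7 had 10.1 in DF2 siRNA and 13.3 in control. Of 6 hnRNP relatives of HNRNPA2B1, 3 were in both lists, 1 in DF2 siRNA only, 1 in control only and 1 in neither. HNRNPD was in DF2 siRNA only, at 11.9 with a −log10 FDR of 1.67. HNRNPA1 was in control only, at 9.49 with a −log10 p of 2.06. The median of these relatives was 20.8 in DF2 siRNA and 22.9 in control, over 4 genes in each list, of which 3 were the same. HNRNPA0 had 49.2 in DF2 siRNA and 56.9 in control, and HNRNPA3 had 9.03 in DF2 siRNA and 23.5 in control.

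RNAs known as ligands of IGF2BP proteins carried peaks in 6 of 10 cases, in both lists each time. Of all genes in either list, 75.2% were in both. The median best fold enrichment of these ligands was 23.9 in DF2 siRNA and 47.5 in control. MYC, whose mRNA IGF2BP1 is known to protect from decay, had a best fold enrichment of 58.5 in DF2 siRNA and 132 in control, and MAPK4 had 94.5 in DF2 siRNA and 64.8 in control. Of 4 genes of the let-7 axis and proposed IGF2BP partners, the microRNA-processing gene DICER1 had 49.0 in DF2 siRNA and 57.4 in control and MATR3 had 17.5 in DF2 siRNA and 24.6 in control. LIN28A and PABPC1 were in neither list.

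**Figure D4:**
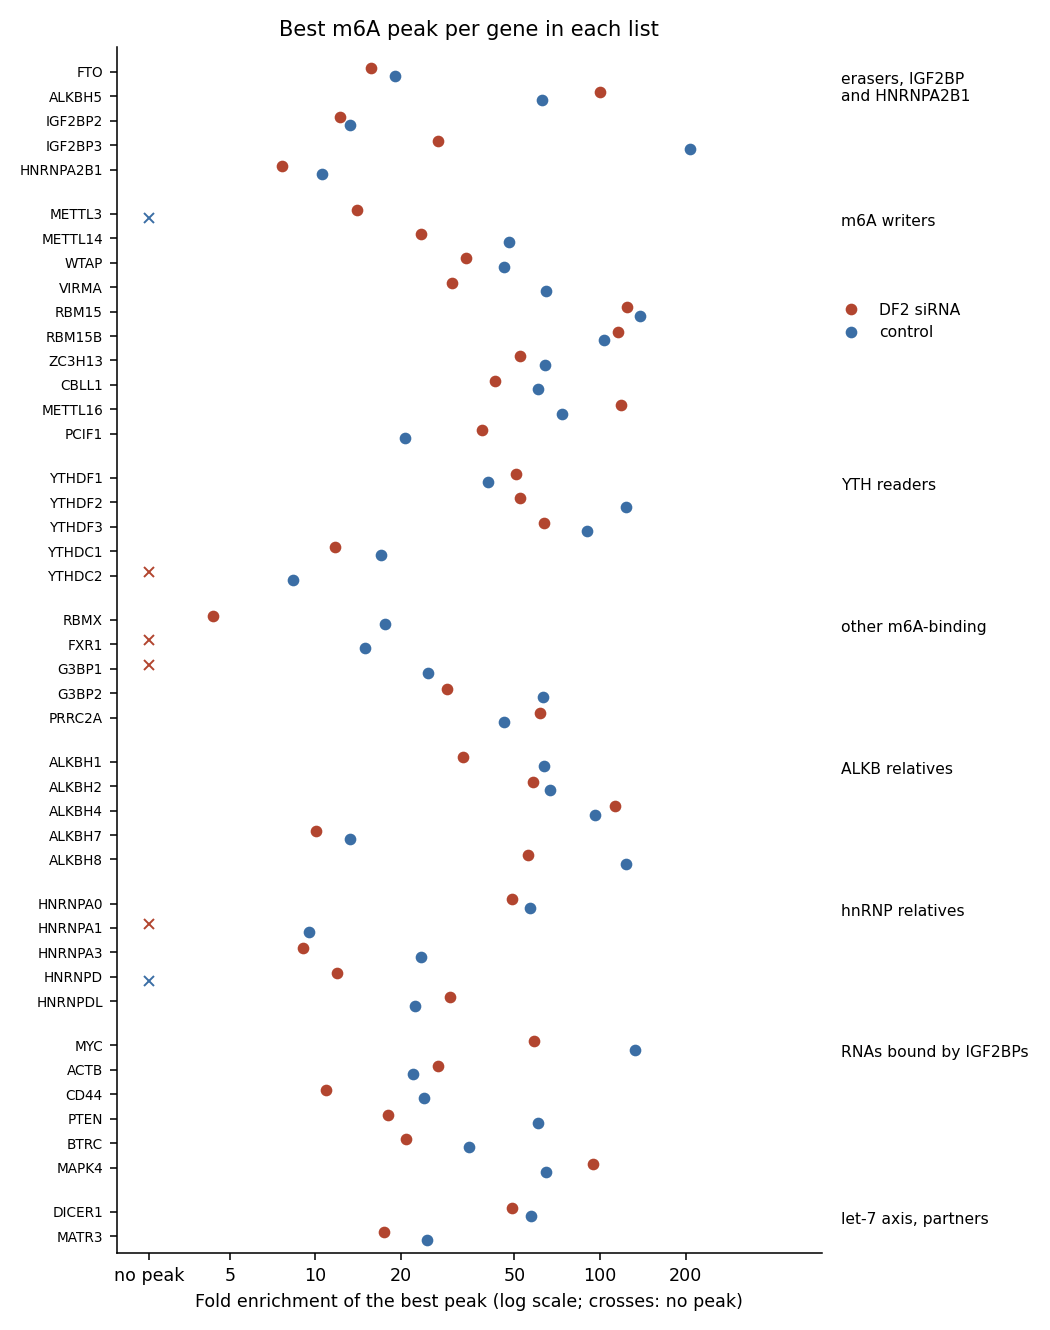
Fold enrichment of the best peak per gene on a log axis, with DF2 siRNA above control in each pair and crosses for no peak. Genes in neither list are not drawn. IGF2BP3 is far above the other genes described here in control, at 207, through its unlabelled peak, and FTO, IGF2BP2 and HNRNPA2B1 lie at or below 19.0 in both lists.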

How the data were processed

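Per the submitters' processing notes, HISAT2 and the build hg38 were used. The sources used here do not give the peak caller, its settings, the annotation or whether strand was used. The authors deposited, per the file headers, a fold enrichment (a ratio), a −log10 value (p-value in control, FDR in DF2 siRNA) and a score for each peak. Per the labels, each list belongs to both pulldowns of its condition.

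Peaks were selected by gene name. IMP3, also an older name of IGF2BP3, is a gene of its own and was not taken. Starts are counted from 1. Block sizes of minus-strand peaks are listed against the order of their starts: read as listed, the last block missed the peak end in 2860 DF2 siRNA and 3918 control peaks, and after reversal in 0, so they were reversed. Overlap needs 1 shared exonic base on the same strand. Older gene names (VIRMA is KIAA1429 in the lists) were matched within 100000 bp of the RefSeq gene of GRCh38.p14, the same coordinates as hg38. Python 3.11.15, pandas 2.3.3 and numpy 2.4.6 were used. Overlap counting returned 30, 60 and 90% for copies of the control list with those shares of peaks kept in place. Partial overlaps and shifted blocks were not tried, so this checks only the counting of identical peaks.

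The members and gene lists were chosen with earlier results of these data known. Genes named from the other lists are those in 1 list only and the 2 with the highest control fold enrichment found in both. ALKBH7, LIN28A, PABPC1, CBX3, DSCR3, YTHDF1, YTHDC1 and RBMX were named after their values were seen. Alternatives were a stricter limit, the upper 50% by fold enrichment, equal list lengths, other overlap rules, merging of near peaks and Ensembl identifiers. Labelled peaks only and unreversed block sizes were added after the data were seen. Values per library were not analysed here.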

Additional observations from a re-analysis of the deposited data

How the results depend on the processing

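The counts rest on many weak peaks. With p or FDR 100 times smaller (−log10 of at least 3.30), 2 genes and 3 peaks were left in the DF2 siRNA list (ALKBH5, IGF2BP3) and 3 genes and 3 peaks in the control list (these and FTO), with 2 genes in both lists and 2 peaks overlapped in each direction. In the upper 50% by fold enrichment, ALKBH5 and IGF2BP3 were left, with 2 genes and 3 peaks in the DF2 siRNA list, 2 genes and 2 peaks in the control list, 2 genes in both and 2 peaks overlapped in each direction. Both settings drop peaks by construction. The first put the same limit on an FDR under DF2 siRNA and on a p-value in control, so it was not equally strict in the 2 lists. The count of pathway genes in both lists was 16, and 14 and 13 under these settings, and that of relatives, ligands and partners was 16, and 11 and 12. Every count was identical with equal list lengths, reciprocal overlap of 50%, overlap without strand, overlap of whole spans, merging across 200 nt, Ensembl identifiers and unreversed block sizes, where each was applied. For equal lengths the control list was cut to 13219 peaks by a ranking other than −log10 p. By −log10 p the control peak of HNRNPA2B1 (rank 15299) and the second IGF2BP3 peak (rank 13277) would fall outside that limit. With labelled peaks only, 4 genes were in the DF2 siRNA list, without HNRNPA2B1, and 5 in the control list. No paired analysis was possible because each condition has 1 list. Leaving out a library was not possible for the same reason.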

Other observations

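The genes most like each member, by the percentile of the best fold enrichment within each list over the 7950 genes in both, were the following. Over only 2 conditions many genes can lie close. For ALKBH5 they were PIP5K1C, FRMD8 and BRAT1, at distances of 0.831 to 1.29 percentile points. For FTO they were NICN1, ZNHIT6 and GID4, at 0.614 to 0.998. For IGF2BP2 they were RNF216, RUVBL1 and UIMC1, at 0.302 to 0.988. For HNRNPA2B1 the 2 nearest were RP11-216L13.19 and PTPN18, at 0.225 and 0.522. IGF2BP3 had its best fold enrichment in its unlabelled peak, while its labelled peaks reached only 19.3 in DF2 siRNA and 17.2 in control. Placed by the unlabelled peak at percentile 52.9 in DF2 siRNA and 99.7 in control, it had no gene within 1 percentile point. The nearest were DNAJB9 (fold enrichment 27.4 in DF2 siRNA and 144 in control, distance 1.89), RP11-119F19.4 (2.44) and ABHD13 (3.17).

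Of 7 osteoblast and mesenchymal markers, RUNX2 and COL1A1 had peaks in both lists and COL1A2, SPARC, ALPL, VIM and TWIST1 had none in either. Of 4 epithelial markers only KRT8 had peaks, in both lists, of 2 neuronal markers only TUBB3, in both, and of 2 haematopoietic markers none. Peaks do not measure expression, so this does not check the cell type.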
